A study of Mus musculus with 18 samples.

Results

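The expression of 9 genes of cerebellar granule neurons was followed in RNA sequencing of whole mouse cerebellum: the transcription factor genes Neurod1, Zic1, Zic2 and Pax6, the cerebellin genes Cbln1 and Cbln3, the cadherin gene Fat2, the vesicular glutamate transporter gene Slc17a7 and the splicing factor gene Rbfox3. They were taken by gene symbol, and are 9 of the 22783 genes in the deposited table. FVB mice of 2 genotypes were sequenced at 3 ages. The first, ATXN1[30Q]D776/Cck-/-, carries a transgene for ataxin-1, the protein of spinocerebellar ataxia type 1, and is called transgenic here. The second, Cck-/-, has no transgene. Both are labelled as lacking Cck, the gene of the neuropeptide cholecystokinin, and no group labelled with intact Cck was compared, although Cck transcript was measured in every library. There were 3 libraries of each genotype at each age (weeks 5, 12 and 28), 18 in all. The labels name neither the promoter of the transgene nor separate animals, so the p-values measure the spread between these libraries. As background, ataxin-1 transgenes of this kind are driven in Purkinje cells by the Pcp2 promoter, whereas the genes described here mark another cell type.

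Granule neurons are the small glutamatergic neurons of the cerebellar cortex and the most numerous neurons of the brain. They arise from precursors of the rhombic lip, and Pax6, Zic1 and Zic2 are active in them from an early stage, while Neurod1 drives their differentiation. Their axons, the parallel fibres, synapse on the spines of Purkinje cells. In these fibres Slc17a7 protein (VGLUT1) fills the vesicles with glutamate, and the secreted protein cerebellin 1 bridges the fibre to the Purkinje cell by binding receptors on both sides.

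The values are FPKM, the fragments of a gene scaled to its length and to the size of the library. Fold changes were tested on log2(FPKM + 1) with limma over the 13487 genes that reached 1 FPKM in at least 3 libraries, and a gene was called where the adjusted p (Benjamini-Hochberg over all of them) was under 0.05. All 9 genes passed this filter with values of at least 27.2 FPKM in every library. Total FPKM ran from 389248 to 441509 per library. Read totals are unknown, but the steps between the lowest values gave the worth of a fragment relative to the Cck-/- week 5 replicate 1, at 0.535 to 0.697 in the 6 libraries of week 28 and 0.856 to 1.25 in the other 11. By this estimate the week 28 libraries were the deeper ones, and depth cannot be told apart from this age. In 1 library, Cck-/- week 28 replicate 1, all 9 genes lay below the other libraries of its group, by a median of 0.48 (log2), and 8 of the 9 were at their lowest of the 18 libraries. Its mean log2 level of 5 blood genes was 6.97, against 5.37 and 3.39 in the other libraries of the group, and that of 10 microglia genes was 3.84, against 3.43 and 3.33. In replicate 1 the Y-linked genes summed to 73.5 FPKM and Xist was at 0.462 FPKM. In replicates 2 and 3 of the group, Xist was at 74.6 and 87.6 FPKM and the Y-linked sums were 0.0187 and 0.0194 FPKM. Leaving out replicate 1 therefore also changes the sexes in the group. Results that rest on this library are given with and without it. Of the transgenic libraries, 3 were low in choroid plexus genes (week 5 replicates 1 and 2, and week 28 replicate 3). Another set of 3 held Xist together with Y-linked transcripts (week 5 replicate 1, week 12 replicate 2 and week 28 replicate 1), and both sexes were present among the rest. Cck itself averaged 98.1 ± 15.6 FPKM in transgenic and 20.8 ± 4.51 FPKM in Cck-/- libraries at week 5 (SD, n = 3 each), so what goes with the transgene at this age cannot be told apart from what goes with the level of Cck. At week 12 Cck averaged 14.8 ± 2.21 and 13.9 ± 2.74 FPKM, and at week 28 6.51 ± 1.76 and 4.97 ± 2.06 FPKM, in transgenic and Cck-/- libraries.

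The promoters of the 4 genes that fell with age in both genotypes are shown to let a reader compare what lies upstream of them. RefSeq (GRCm38.p6, the same assembly as mm10) held an entry for 7 of the 9 genes, not for Cbln1 and Zic2. Each line holds the 250 bases before a gene's start, 5′ to 3′ on the strand of the gene. These are chr2:79456637-79456886 (minus strand) for Neurod1, chr9:91365769-91366018 (minus) for Zic1, chr7:45163671-45163920 (plus) for Slc17a7 and chr11:118761042-118761291 (minus) for Rbfox3, the last at a start that lies within the longer Rbfox3 locus. Capitals mark an E-box, the hexamer CAGNTG of the kind that NEUROD1 binds, searched on both strands.
Neurod1: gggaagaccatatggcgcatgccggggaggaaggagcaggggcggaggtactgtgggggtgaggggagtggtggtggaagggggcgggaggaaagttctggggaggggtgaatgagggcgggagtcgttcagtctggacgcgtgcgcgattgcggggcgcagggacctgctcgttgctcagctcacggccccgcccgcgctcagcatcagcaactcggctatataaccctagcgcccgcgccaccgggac
Zic1: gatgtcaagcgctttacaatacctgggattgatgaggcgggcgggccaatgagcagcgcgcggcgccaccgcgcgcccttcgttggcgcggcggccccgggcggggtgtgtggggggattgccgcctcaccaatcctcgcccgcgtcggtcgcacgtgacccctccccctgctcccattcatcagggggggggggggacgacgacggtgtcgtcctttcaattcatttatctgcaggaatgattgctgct
Slc17a7: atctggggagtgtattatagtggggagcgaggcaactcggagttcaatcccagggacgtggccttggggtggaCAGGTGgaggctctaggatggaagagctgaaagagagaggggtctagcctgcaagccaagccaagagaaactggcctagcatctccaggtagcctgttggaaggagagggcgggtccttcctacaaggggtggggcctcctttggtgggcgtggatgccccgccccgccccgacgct
Rbfox3: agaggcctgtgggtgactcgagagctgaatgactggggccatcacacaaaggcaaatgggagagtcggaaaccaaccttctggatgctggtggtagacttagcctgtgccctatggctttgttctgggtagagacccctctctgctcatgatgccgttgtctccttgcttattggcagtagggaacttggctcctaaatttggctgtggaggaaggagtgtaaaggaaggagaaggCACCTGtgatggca

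The Slc17a7 window held CAGGTG 177 bases before the start, and the Rbfox3 window held CACCTG 14 bases before it. Among the other genes with an entry, Cbln3 held CAACTG 168 bases before its start, so 3 of 7 genes had an E-box, against 44.8% of all 32851 promoters. The Zic motif CCTGCTG was found in none of the 7, against 8.44% of all promoters searched on both strands in the same way. The Neurod1 and Zic1 windows were rich in GC, at 67.6% and 66.0%, with 22 and 27 CpG dinucleotides, whereas Slc17a7 had 61.2% and 9 and Rbfox3 52.8% and 3. Over all promoters the medians were 52.4% and 6.

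Cbln1 had the highest level per length of the 9 genes in every group and Cbln3 the next, and Pax6 had the lowest and Fat2 the next lowest. Cbln1 averaged 429 ± 15.1 FPKM in transgenic and 471 ± 26.1 FPKM in Cck-/- libraries at week 5 (SD, n = 3 each), and Pax6 33.6 ± 1.64 and 35.1 ± 0.333 FPKM. Between these ends, Neurod1, Slc17a7 and Zic1 changed places with age. By mean in Cck-/- libraries, Slc17a7 stood above Neurod1 and Zic1 at week 5, where the ranges of Slc17a7 and Neurod1 overlapped, and Zic1 stood above both at weeks 12 and 28, where its range overlapped that of Slc17a7. In transgenic libraries Neurod1 led these 3 at week 5 and Zic1 did at weeks 12 and 28, with overlapping ranges between Zic1 and Neurod1 at weeks 5 and 12. Zic2 and Rbfox3 followed in every group, and their ranges overlapped in both genotypes at week 5 and in Cck-/- libraries at week 28.

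**Figure D1:**
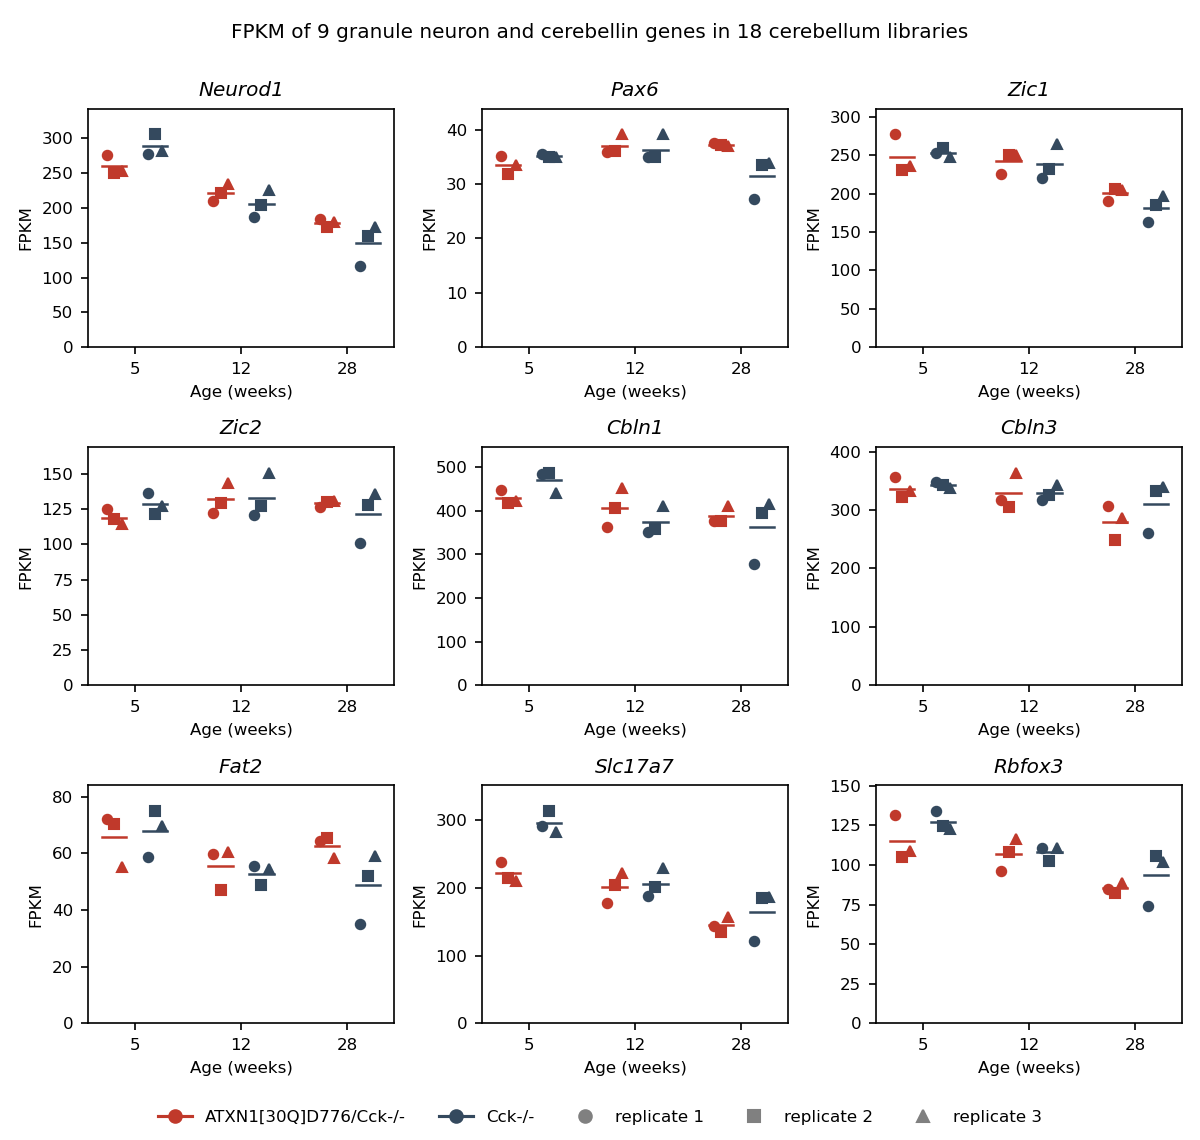
FPKM (y axis, from 0) of each of the 9 genes by age in weeks (x axis), with transgenic libraries in red to the left and Cck-/- libraries in blue to the right, the symbol giving the replicate and the line the mean of 3 libraries. The means of Neurod1 and Slc17a7 are lower at each later age in both genotypes, and the Cck-/- week 28 replicate 1 (circle) lies lowest of its group in all 9 panels.

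More of these genes were called between ages than between genotypes. From week 5 to week 28, 5 of the 9 genes fell in transgenic libraries and 6 of 9 in Cck-/- libraries, and none rose. Neurod1, Slc17a7, Zic1 and Rbfox3 fell in both genotypes. Cbln3 was called in transgenic libraries, and Cbln1 and Fat2 in Cck-/- libraries, and the interactions given later do not show these to differ between genotypes. Pax6 and Zic2 were not called in any age comparison. The median log2 fold change of the 9 genes was -0.27 in transgenic and -0.45 in Cck-/- libraries, against -0.0052 and 0.0012 over all genes tested. The Cck-/- median was -0.28 without week 28 replicate 1. Falls were called for 19.9% of all genes in transgenic and 17.7% in Cck-/- libraries, and week 28 levels lay below those of week 5 without overlap for 26.4% and 24.3%. In whole tissue, fewer granule neurons and less of a transcript per neuron cannot be told apart.

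Between the steps, 2 of 9 genes fell from week 5 to 12 in Cck-/- libraries (Neurod1 and Slc17a7), where 6.53% of all genes did. In transgenic libraries none of the 9 was called over this step by limma, where 1.19% of all genes were called. None of the 9 had an unadjusted p under 0.05, against 1821 of all 13487 genes, or was called under library weights. From week 12 to 28, Slc17a7 and Zic1 fell in transgenic libraries, against 13.7% of all genes, and Neurod1 and Zic1 fell in Cck-/- libraries, against 5.62%.

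**Figure D2:**
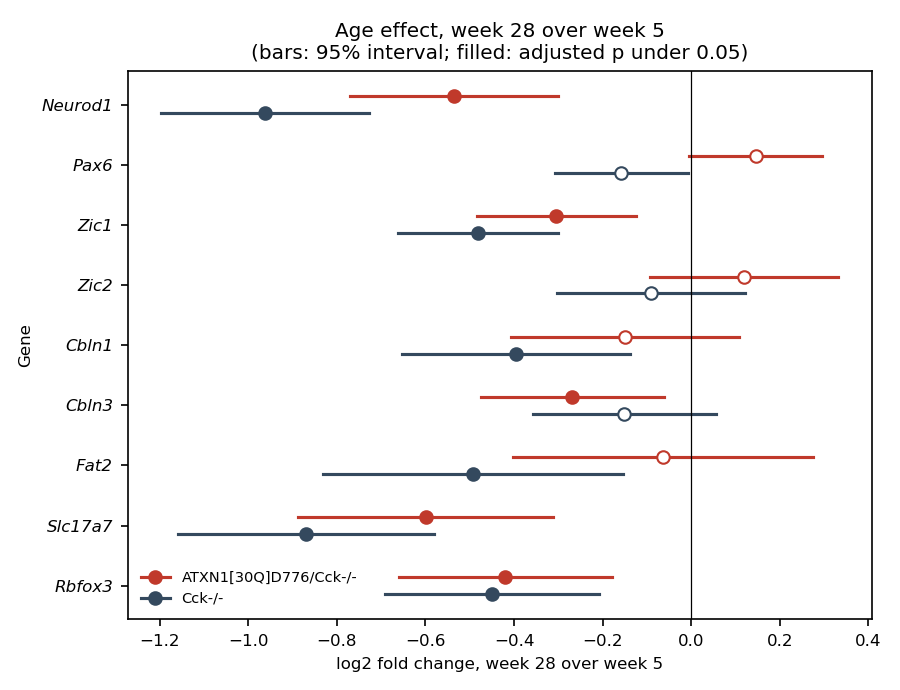
Log2 fold change of week 28 over week 5 (x axis) for each gene (y axis), with transgenic libraries in red above Cck-/- libraries in blue and bars giving the 95% interval, filled where the adjusted p was under 0.05. Neurod1 and Slc17a7 lie farthest to the left, at -0.54 and -0.60 in transgenic and at -0.96 and -0.87 in Cck-/- libraries, and Zic2 spans 0 in both.

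These calls rested unequally on single libraries, and the shares of all genes called in the fits without libraries are not given here. Without Cck-/- week 28 replicate 1, 4 of the 6 falls in Cck-/- libraries remained, those of Neurod1 (-0.79, adjusted p = 6.59e-06), Slc17a7 (-0.67, adjusted p = 0.000219), Zic1 (-0.41, adjusted p = 0.00276) and Rbfox3 (-0.29, adjusted p = 0.0236). Cbln1 (-0.22, adjusted p = 0.0775) and Fat2 (-0.28, adjusted p = 0.122) were lost. Without the 3 transgenic libraries low in choroid plexus genes, which leaves 1 library at week 5 that is assumed to vary like the other groups, none of the 5 falls in transgenic libraries was called, with log2 fold changes of -0.59 to -0.26 and adjusted p of 0.0698 to 0.249. Without the 3 libraries that held Xist and Y-linked transcripts together, Neurod1 alone remained called (-0.51, adjusted p = 0.03), and the other 4 had adjusted p of 0.056 to 0.192. Markers of other cell types were called over the same interval. Of 15 Purkinje cell genes, 14 fell in transgenic and none in Cck-/- libraries, with sums of 1702 to 3258 FPKM at week 28, against 3907 to 4299.6 at week 5, in transgenic, and of 4581 to 4955, against 4687 to 4937, in Cck-/- libraries. All 10 microglia genes rose in transgenic and 7 of 10 in Cck-/- libraries, their summed level running from 177 to 283 FPKM at week 28, against 77.6 to 109 at week 5, in transgenic, and from 112 to 164, against 75.9 to 87.9, in Cck-/- libraries. Of 10 genes of oligodendrocytes and myelin, 7 fell and 1 rose in transgenic libraries, where they summed to 2902 to 3345 FPKM at week 28, against 4066 to 4187 at week 5, and all 10 fell in Cck-/- libraries, with sums of 2075 to 2712, against 5120 to 6193 FPKM. Of 11 molecular layer interneuron and Golgi cell genes, 2 rose and 1 fell in transgenic and 6 rose in Cck-/- libraries, with sums of 497 to 631 FPKM at week 28, against 463 to 509.8 at week 5, in transgenic, and of 584 to 664, against 429 to 441, in Cck-/- libraries. Of 10 astrocyte and Bergmann glia genes, 4 rose and 4 fell in transgenic and 2 fell in Cck-/- libraries. No marker of these lists was at 0 in all libraries, and their part in the changes of the granule neuron genes was not tested. Of all genes, falls over this interval were called for 19.9% in transgenic and 17.7% in Cck-/- libraries. The share of all genes that rose is not given here.

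Few of these genes were called between genotypes. None of the 9 was called at week 5 or week 12, and Pax6 was called higher in transgenic libraries at week 28. At week 5, 7.67% of all genes were called, at week 12 1.36%, and at week 28 4.54% were called higher and 6.13% lower. Averaged over the ages none of the 9 was called, against 14.8%. At an unadjusted p under 0.05, 1 gene passed at week 5, none at week 12, 3 at week 28 and 1 in the average. Of all 13487 genes tested, 3010, 1623, 3483 and 3856 passed in these comparisons. With library weights, which let a deviant library count for less, 1 was called at week 5, none at week 12, 6 at week 28 and 2 in the average. The 6 of week 28 were Neurod1, Pax6 and Fat2, higher, and Cbln3, Slc17a7 and Rbfox3, lower. The share of all genes called with library weights is not known here, so these counts cannot be read as particular to the 9 genes.

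**Figure D3:**
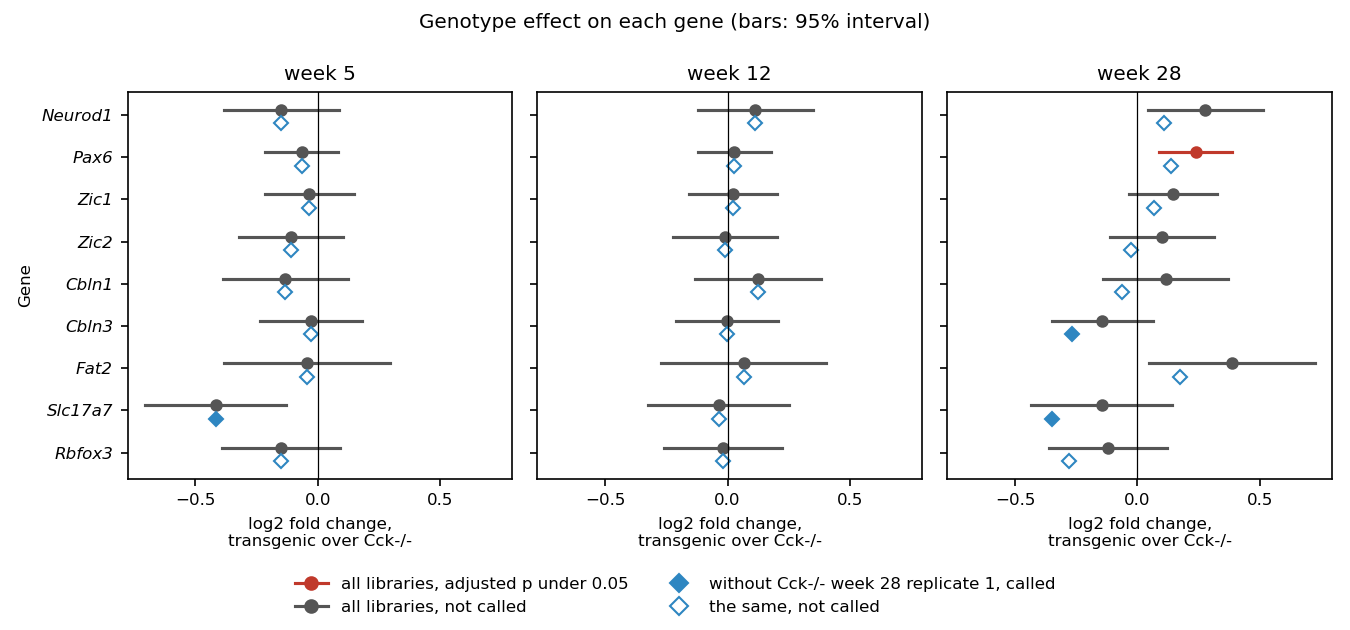
Log2 fold change of transgenic over Cck-/- libraries (x axis) for each gene (y axis) at weeks 5, 12 and 28, circles and bars giving the value and 95% interval of the fit to all 18 libraries, red where called, and diamonds the value without Cck-/- week 28 replicate 1, filled where called. At week 28 every diamond lies to the left of its circle, Pax6 is called only with all libraries (0.24), and Cbln3 (-0.27) and Slc17a7 (-0.35) only without that library, as is Slc17a7 at week 5 (-0.42).

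Markers of other cell types were also called between the genotypes. Of 15 Purkinje cell genes, 5 were lower in transgenic libraries at week 5, the same number at week 12 and 14 at week 28, when they summed to 1702 to 3258 FPKM in transgenic, against 4581 to 4955 FPKM in Cck-/- libraries. Pcp2, a Purkinje cell gene, averaged 338 ± 135 and 718 ± 33.5 FPKM at that age (SD, n = 3 each). At week 28, 5 of 10 microglia genes were higher, at sums of 177 to 283, against 112 to 164 FPKM, and of 10 astrocyte and Bergmann glia genes 3 were higher and 6 lower, at sums of 2261 to 2521, against 2485 to 2889 FPKM. At week 5, 6 of 10 oligodendrocyte and myelin genes were lower, at 4066 to 4187, against 5120 to 6193 FPKM. At week 28, 3 of these 10 were higher, at 2902 to 3345, against 2075 to 2712 FPKM. Of 11 molecular layer interneuron and Golgi cell genes, 4 were higher at week 5, at 463 to 509.8, against 429 to 441 FPKM. At week 28, 3 of these 11 were lower, at 497 to 631, against 584 to 664 FPKM. Of all genes, 7.67% were called in either direction at week 5 and 1.36% at week 12. At week 28, 4.54% were called higher and 6.13% lower. No gene of these lists was at 0 in all libraries. The part of these cell types in the values of the 9 genes was not tested.

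Neurod1, which encodes a basic helix-loop-helix factor needed for granule neuron differentiation and survival, lies at chr2:79452641-79456636 on the minus strand, in mm10 as in all positions that follow. It overlaps Cerkl on the same strand in GENCODE, so reads of Neurod1 and Cerkl may not be told apart where they overlap. At week 5, Neurod1 had 277, 251 and 253 FPKM in transgenic libraries, against 278, 306 and 281 FPKM in Cck-/- libraries. At week 12, Neurod1 had 209.6, 222 and 234 FPKM in transgenic libraries, against 186, 204 and 225 FPKM in Cck-/- libraries. At week 28, Neurod1 had 184, 173 and 179.6 FPKM in transgenic libraries, against 116, 159.8 and 172 FPKM in Cck-/- libraries. Within each triplet the values are those of replicates 1, 2 and 3. In both genotypes all week 28 libraries lay below all week 12 libraries, and those below all week 5 libraries. The share of all genes separated at each step is not given here. From week 5 to 28 such a fall without overlap was found for 26.4% of all genes in transgenic and 24.3% in Cck-/- libraries. Neurod1 fell over the whole span, week 5 to 28, in transgenic (log2 fold change -0.54 with SE 0.11, adjusted p = 0.00186; limma, as for all adjusted p that follow) and in Cck-/- libraries (-0.96, SE 0.11, adjusted p = 1.6e-05). Leaving out any single library did not end either call. The fall reached -0.49, SE 0.11, adjusted p = 0.00923 by week 12 in Cck-/- libraries and went on from week 12 to 28 (-0.47, SE 0.11, adjusted p = 0.0163), where it was lost without week 12 replicate 3 (-0.40, adjusted p = 0.0742) and smaller without week 28 replicate 1 (-0.30, adjusted p = 0.0253). The corresponding steps in transgenic libraries were -0.23, SE 0.11, adjusted p = 0.384, and -0.31, SE 0.11, adjusted p = 0.0552. The later one was called without Cck-/- week 28 replicate 1 (adjusted p = 0.00549) or replicate 3 (0.0352).

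Between the genotypes, Neurod1 ranges did not overlap at week 5, where transgenic libraries were lower (log2 fold change -0.15 with SE 0.11, adjusted p = 0.471), overlapped at week 12 (0.11, SE 0.11, adjusted p = 0.769), and did not overlap at week 28, where transgenic libraries were higher (0.28, SE 0.11, adjusted p = 0.125). Such separation was common, in 31.2% of all genes at week 5 and 26.1% at week 28. The week 28 difference was 0.11, adjusted p = 0.37 without Cck-/- week 28 replicate 1, and 0.39, adjusted p = 0.0447 without replicate 3. The change in the genotype effect from week 5 to 28 was 0.43, SE 0.16, adjusted p = 0.144, and 0.26, adjusted p = 0.149 without Cck-/- week 28 replicate 1.

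Zic1 and Zic2 encode zinc finger factors that granule cells carry from the precursor stage into maturity. Zic1 lies at chr9:91360345-91365799 (minus) and overlaps Zic4 on the other strand in GENCODE, and Zic2 lies at chr14:122475384-122480328 (plus). At week 5, Zic1 had 277, 231 and 236 FPKM in transgenic libraries, against 253, 259 and 248 FPKM in Cck-/- libraries. At week 12, Zic1 had 225, 250.4 and 251 FPKM in transgenic libraries, against 219.9, 232 and 264 FPKM in Cck-/- libraries. At week 28, Zic1 had 189.8, 206 and 205 FPKM in transgenic libraries, against 163, 185 and 197 FPKM in Cck-/- libraries. Week 5 and week 12 ranges overlapped in both genotypes, and every week 28 library lay below every library of week 12. The share of all genes separated over this step is not given here. From week 12 to 28 Zic1 fell in transgenic (log2 fold change -0.27 with SE 0.085, adjusted p = 0.0313) and Cck-/- libraries (-0.39, SE 0.085, adjusted p = 0.0109), and over the whole span it fell by a log2 fold change of 0.30, SE 0.085, adjusted p = 0.0116 in transgenic and 0.48, SE 0.085, adjusted p = 0.000559 in Cck-/- libraries.

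The Cck-/- fall of Zic1 over the whole span held in every fit without 1 library. The transgenic one was lost without week 5 replicate 1 (-0.22, adjusted p = 0.0638) or week 28 replicate 1 (-0.27, adjusted p = 0.0526). The transgenic step from week 12 to 28 was lost without any 1 of week 12 replicates 2 and 3 and week 28 replicates 1 and 2 (adjusted p 0.0624 to 0.119), and the Cck-/- step without week 12 replicate 3 (-0.32, adjusted p = 0.0537). Zic1 did not pass the test between genotypes at any age. The values were -0.034 at week 5, 0.024 at week 12 and 0.14, SE 0.085, adjusted p = 0.308 at week 28, with a 95% interval of -0.036 to 0.32 at the last, which was 0.068, adjusted p = 0.633 without Cck-/- week 28 replicate 1.

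Zic2 ran from 114 to 125 FPKM in transgenic, against 121 to 136 FPKM in Cck-/- libraries at week 5. At week 28 Zic2 ran from 127 to 131 FPKM in transgenic, against 101 to 135 FPKM in Cck-/- libraries. Its change over this span was 0.12, SE 0.10, adjusted p = 0.364 in transgenic and -0.091, SE 0.10, adjusted p = 0.515 in Cck-/- libraries, with 95% intervals of -0.092 to 0.33 and -0.30 to 0.12. The Cck-/- value changed sign without week 28 replicate 1 (0.038, adjusted p = 0.772). By genotype at week 28 Zic2 was 0.10, SE 0.10, adjusted p = 0.568, and -0.027, adjusted p = 0.862 without that library. The ratio of Zic2 to Zic1 within a library was higher at week 28. Its median was 0.482, 0.543 and 0.638 at weeks 5, 12 and 28 in transgenic libraries, against 0.514, 0.550 and 0.687 in Cck-/- libraries. In each genotype all 3 week 28 ratios lay above all ratios of weeks 5 and 12. The ratio was chosen after its values were seen and was not tested.

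**Figure D4:**
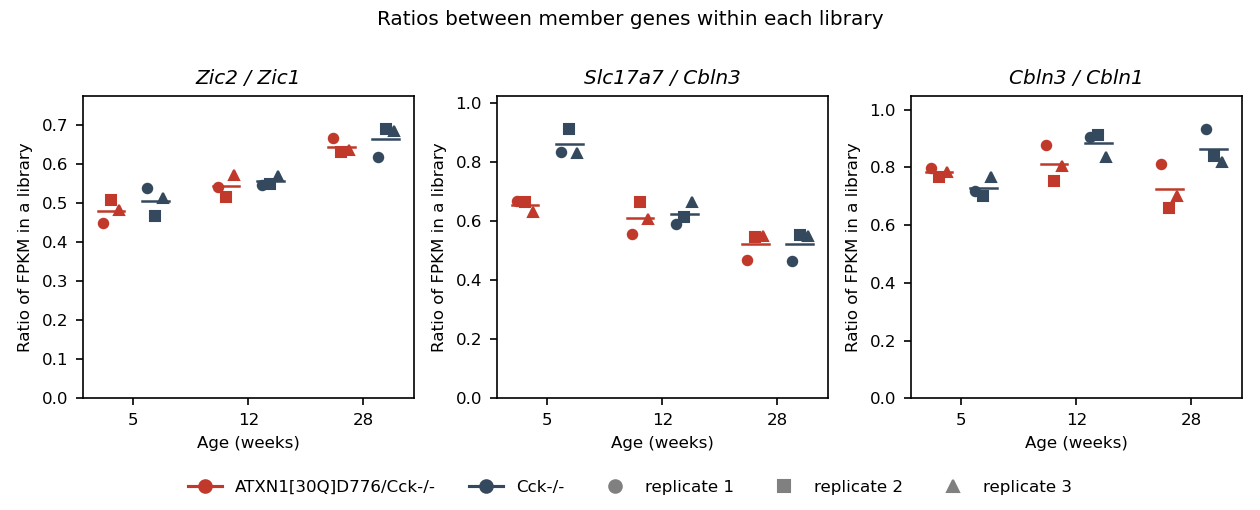
Ratio of FPKM of a pair of genes within each library (y axis, from 0) by age in weeks (x axis), transgenic libraries in red to the left and Cck-/- libraries in blue to the right, the symbol giving the replicate and the line the group mean. Zic2 over Zic1 is highest at week 28 in both genotypes, and Slc17a7 over Cbln3 is lowest at week 28 by median in both, with the Cck-/- week 5 libraries (0.832 to 0.914) above all others.

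Of 15 other members of the Zic, NeuroD, Pax, Fat, Rbfox and transporter families, 12 were tested. Over the whole span, 2 fell and none rose in transgenic libraries (median -0.036), and 2 fell and 2 rose in Cck-/- libraries (median -0.11), beside the same shares of all genes that fell, 19.9% and 17.7%. The share of all genes that rose over the span is not given here. In transgenic libraries the called genes were Zic5, the neighbour of Zic2 at a distance of 9757 bases, with -0.31, SE 0.067, adjusted p = 0.00278, and Rbfox1, a splicing factor gene, with -0.33, SE 0.10, adjusted p = 0.0195. In Cck-/- libraries Zic4, the neighbour that overlaps Zic1, fell (-0.33, SE 0.051, adjusted p = 0.000228), as did Fat1, while Pax2 and Rbfox2 rose. By genotype at week 28, 4.54% of all genes were called higher and 6.13% lower. Zic4 was the only one of the 12 called by genotype at week 28, at 11.4 ± 0.382 FPKM in transgenic and 9.65 ± 0.230 FPKM in Cck-/- libraries (SD, n = 3 each; log2 fold change 0.22 with SE 0.051, adjusted p = 0.0116). It kept this call without Cck-/- week 28 replicate 1 (adjusted p = 0.0164) and lost it without the 3 libraries that held Xist and Y-linked transcripts together (0.0706). The use of strand in counting is not given in the sources used here, so reads of Zic1 and Zic4 cannot be told apart where they overlap.

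Pax6 encodes a paired-domain and homeodomain factor of rhombic lip derivatives that granule cells need for migration and axon growth. Its row spans chr2:105536080-105697364 (plus), longer than the gene in GENCODE (105668900 to 105697364). The GENCODE gene overlaps the antisense gene Pax6os1, whose reads cannot be told apart from those of Pax6 without strand. Genes that overlap the rest of the row were not searched for. At week 5, Pax6 had 35.2, 31.9 and 33.6 FPKM in transgenic libraries, against 35.5, 35.0 and 34.9 FPKM in Cck-/- libraries. At week 12, Pax6 had 35.9, 36.0 and 39.1 FPKM in transgenic libraries, against 34.9, 34.9 and 39.1 FPKM in Cck-/- libraries. At week 28, Pax6 had 37.5, 37.1 and 36.9 FPKM in transgenic libraries, against 27.2, 33.5 and 33.9 FPKM in Cck-/- libraries. All 9 transgenic values lay between 31.9 and 39.1 FPKM, and at week 28 the groups did not overlap, as for 26.1% of all genes. Pax6 was higher in transgenic than in Cck-/- libraries at week 28 (log2 fold change 0.24 with SE 0.070, adjusted p = 0.0426), where higher levels were called for 4.54% of all genes. At week 5 it was -0.065, SE 0.070, adjusted p = 0.651 and at week 12 0.027, SE 0.070, adjusted p = 0.943, and the change in the genotype effect from week 5 to 28 was 0.30, SE 0.099, adjusted p = 0.104.

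The week 28 call of Pax6 was not stable. It was 0.14, adjusted p = 0.0996 without Cck-/- week 28 replicate 1, whose 27.2 FPKM was the lowest of the 18. It held in 8 of the 18 fits without 1 library, and was also lost without transgenic week 28 replicate 1, 2 or 3 (adjusted p = 0.128, 0.125 and 0.0595), transgenic week 5 replicate 3 (0.0525), Cck-/- week 5 replicate 1, 2 or 3 (0.0538, 0.0548 and 0.0573) and Cck-/- week 12 replicate 1 or 2 (0.0507 and 0.0521). With age Pax6 was 0.15, SE 0.070, adjusted p = 0.117 in transgenic and -0.16, SE 0.070, adjusted p = 0.0967 in Cck-/- libraries from week 5 to 28. Without Cck-/- week 28 replicate 1 the first was called (adjusted p = 0.0258) and the second was -0.057, adjusted p = 0.449. The second was called without replicate 3 of that group (0.0463).

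Cbln1 encodes the secreted cerebellin 1, which granule neurons release at parallel fibre synapses, and Cbln3 a relative that in mice is secreted only together with cerebellin 1. Cbln1 lies at chr8:87468853-87472592 (minus) and Cbln3 at chr14:55878920-55884256 (minus). Cbln1 overlaps Gm2694 on the other strand in GENCODE, whose reads cannot be told apart from its own without strand. At week 5, Cbln1 had 447, 419 and 423 FPKM in transgenic libraries, against 485, 487 and 441 FPKM in Cck-/- libraries. At week 12, Cbln1 had 362, 407 and 452 FPKM in transgenic libraries, against 351, 358 and 409.6 FPKM in Cck-/- libraries. At week 28, Cbln1 had 377, 375 and 409 FPKM in transgenic libraries, against 278, 395 and 415 FPKM in Cck-/- libraries. In Cck-/- libraries all week 5 values lay above all later ones, and in transgenic libraries the week 28 values lay below those of week 5 by a small margin. Such a fall from week 5 to 28 without overlap was found for 24.3% of all genes in Cck-/- and 26.4% in transgenic libraries. Cbln1 fell over the whole span in Cck-/- libraries (log2 fold change -0.40 with SE 0.12, adjusted p = 0.0201), and was -0.15, SE 0.12, adjusted p = 0.349 in transgenic libraries. The Cck-/- fall was lost without week 28 replicate 1 (-0.22, adjusted p = 0.0775) or week 5 replicate 1 or 2 (adjusted p = 0.0607 and 0.0637). Over the first step it was -0.34, SE 0.12, adjusted p = 0.0856, and it was called over this step without Cck-/- week 28 replicate 1 (adjusted p = 0.0104). By genotype Cbln1 was -0.13 at week 5, 0.12 at week 12 and 0.11 at week 28, with adjusted p of at least 0.577. The week 28 value was -0.065, adjusted p = 0.657 without Cck-/- week 28 replicate 1.

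At week 5, Cbln3 had 356, 321 and 332 FPKM in transgenic libraries, against 348, 342 and 338 FPKM in Cck-/- libraries. At week 12, Cbln3 had 317, 306 and 364 FPKM in transgenic libraries, against 318, 326 and 343 FPKM in Cck-/- libraries. At week 28, Cbln3 had 306, 248 and 286 FPKM in transgenic libraries, against 260.0, 332 and 339 FPKM in Cck-/- libraries. Weeks 5 and 12 overlapped in both genotypes, and only the transgenic week 28 libraries all lay below their week 5 counterparts. In transgenic libraries 26.4% of all genes were separated in this way. Cbln3 fell in transgenic libraries from week 5 to 28 (log2 fold change -0.27 with SE 0.097, adjusted p = 0.0416), and was -0.15, SE 0.097, adjusted p = 0.247 in Cck-/- libraries, or -0.029, adjusted p = 0.827 there without week 28 replicate 1. The transgenic fall held in 9 of 18 fits without 1 library. Its adjusted p was highest, at 0.192 with -0.18, without week 28 replicate 2, the lowest library at 248 FPKM. It was also lost without transgenic week 28 replicate 3 (0.0556), week 5 replicates 1, 2 and 3 (0.135, 0.0532 and 0.0754), and Cck-/- week 5 replicates 1 to 3 or week 12 replicate 2 (0.051 to 0.052). From week 12 to 28 in transgenic libraries it was -0.23, SE 0.097, adjusted p = 0.0913, and called without Cck-/- week 28 replicate 1 (adjusted p = 0.0322). Between genotypes at week 28 Cbln3 was -0.14, SE 0.097, adjusted p = 0.382. Without Cck-/- week 28 replicate 1 it was lower in transgenic libraries (-0.27, adjusted p = 0.0477). The ratio of Cbln3 to Cbln1 had medians of 0.785, 0.805 and 0.699 at weeks 5, 12 and 28 in transgenic libraries, against 0.718, 0.906 and 0.841 in Cck-/- libraries.

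Of 13 cerebellin and C1q-like relatives and receptors besides Cbln1 and Cbln3, 12 were tested. At week 28, 1 was called higher and 1 lower in transgenic libraries, against 4.54% and 6.13% of all genes. The higher one was C1ql3, a C1q-like ligand gene (log2 fold change 0.48 with SE 0.14, adjusted p = 0.0346). The median over the list was 0.082 against 0.0046 over all genes. At week 12, 1 was called lower and none higher, where 1.36% of all genes were called in either direction. At week 5, 7.67% of all genes were called in either direction. Of the 12 genes, 3 were higher at week 5 in transgenic libraries and none lower, namely Bai1 (0.32), an adhesion receptor gene, Grid1 (0.33), a glutamate receptor family gene, and C1ql3 (0.50). With age, over the whole span, 3 fell and 2 rose in each genotype, where 19.9% of all genes fell in transgenic and 17.7% in Cck-/- libraries. The share of all genes that rose over this span is not given here. In transgenic libraries the genes that fell included Bai2 (-0.38), also an adhesion receptor gene, and the neurexin gene Nrxn2 (-0.25), and Cbln4, another cerebellin gene, rose (0.66, at a mean level of 1.62 ± 0.368 FPKM at week 28, against 0.652 ± 0.244 FPKM at week 5, SD, n = 3 each). In Cck-/- libraries those that fell included Bai2 (-0.78) and Nrxn2 (-0.41), and Bai1 rose (0.34). Without the 3 libraries low in choroid plexus genes 1 fell and 1 rose from week 5 to 28 in transgenic libraries, and without the 3 that held Xist and Y-linked transcripts together 1 fell and none rose.

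Fat2 encodes a giant protocadherin found on parallel fibres, and lies at chr11:55250610-55312257 (minus). At week 5, Fat2 had 72.1, 70.5 and 55.2 FPKM in transgenic libraries, against 58.8, 75.0 and 69.7 FPKM in Cck-/- libraries. At week 12, Fat2 had 59.7, 46.9 and 60.3 FPKM in transgenic libraries, against 55.5, 48.7 and 54.4 FPKM in Cck-/- libraries. At week 28, Fat2 had 64.3, 65.5 and 58.2 FPKM in transgenic libraries, against 35.2, 52.1 and 58.9 FPKM in Cck-/- libraries. Week 5 and week 28 ranges overlapped in both genotypes. Fat2 fell in Cck-/- libraries from week 5 to 28 (log2 fold change -0.49 with SE 0.16, adjusted p = 0.0263) and was -0.063, SE 0.16, adjusted p = 0.775 in transgenic libraries. The Cck-/- fall was lost without week 28 replicate 1 (-0.28, adjusted p = 0.122), week 5 replicate 2 (-0.42, adjusted p = 0.0994) or week 5 replicate 3 (-0.47, adjusted p = 0.0729). At week 28 the genotype difference was 0.39, SE 0.16, adjusted p = 0.138, with a 95% interval of 0.048 to 0.72, and without Cck-/- week 28 replicate 1 it was 0.17, adjusted p = 0.407. At week 5 it was -0.044 and at week 12 0.066.

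Slc17a7, the gene of the transporter that loads glutamate into parallel fibre vesicles, lies at chr7:45163921-45176139 (plus). At week 5, Slc17a7 had 238, 214 and 209.9 FPKM in transgenic libraries, against 291, 313 and 281 FPKM in Cck-/- libraries. At week 12, Slc17a7 had 177, 204 and 221 FPKM in transgenic libraries, against 188, 200.3 and 228 FPKM in Cck-/- libraries. At week 28, Slc17a7 had 144, 135 and 157 FPKM in transgenic libraries, against 121, 184 and 186 FPKM in Cck-/- libraries. Each transgenic library of week 5 was below each Cck-/- library of that age, and at weeks 12 and 28 the genotypes overlapped. Slc17a7 fell from week 5 to 28 in transgenic (log2 fold change -0.60 with SE 0.14, adjusted p = 0.00339) and Cck-/- libraries (-0.87, SE 0.14, adjusted p = 0.00023), and neither call was ended by leaving out 1 library. In Cck-/- libraries the fall was called from week 5 to 12 (-0.52, SE 0.14, adjusted p = 0.0209), and lost without week 5 replicate 1 or 2 or week 12 replicate 1 or 2 (adjusted p 0.0547 to 0.087). In transgenic libraries it was called from week 12 to 28 (-0.46, SE 0.14, adjusted p = 0.0244), and lost without week 12 replicate 2 or 3 or week 28 replicate 1 or 2 (adjusted p 0.0708 to 0.099). The other step of each genotype was -0.14, SE 0.14, adjusted p = 0.705 in transgenic and -0.35, SE 0.14, adjusted p = 0.119 in Cck-/- libraries, where it was -0.14, adjusted p = 0.374 without week 28 replicate 1.

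By genotype, Slc17a7 had the smallest p of the 9 genes at week 5 (log2 fold change -0.42 with SE 0.14, adjusted p = 0.0767), with a 95% interval of -0.71 to -0.13. Lower values without overlap were found for 16.0% of all genes there. The adjusted p was 0.00892 without Cck-/- week 28 replicate 1 and 0.0114 with the week 5 libraries alone. At week 12 it was -0.036, SE 0.14, adjusted p = 0.965 and at week 28 -0.15, SE 0.14, adjusted p = 0.539. Without Cck-/- week 28 replicate 1 it was lower in transgenic libraries at week 28 (-0.35, adjusted p = 0.0293) and averaged over the ages (-0.27, adjusted p = 0.00303), against -0.20, SE 0.078, adjusted p = 0.102 for the average over all libraries. The ratio of Slc17a7 to Cbln3 within a library had medians of 0.667, 0.608 and 0.546 in transgenic libraries at weeks 5, 12 and 28, against 0.836, 0.613 and 0.549 in Cck-/- libraries, so that the genotypes were apart at week 5 and close later.

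Other genes of the release site were measured beside it. Of 22 presynaptic genes, all tested, 4 fell and 1 rose between weeks 5 and 28 in transgenic libraries (median -0.13), and 5 fell and 1 rose in Cck-/- libraries (median -0.13), against 19.9% of all genes called lower in transgenic and 17.7% in Cck-/- libraries. The share of all genes called higher over this span is not given here. Grm4, a glutamate receptor gene of parallel fibre terminals, averaged 127 ± 11.9 FPKM in transgenic and 188 ± 11.8 FPKM in Cck-/- libraries at week 5, and 86.0 ± 5.87 and 93.4 ± 24.5 FPKM at week 28 (SD, n = 3 each). Its fall was -0.55, SE 0.18, adjusted p = 0.0239 in transgenic and -1.04, SE 0.18, adjusted p = 0.000457 in Cck-/- libraries. Sv2b, a vesicle protein gene, fell in both (-0.30 and -0.35), and Vamp1, a vesicle fusion gene, rose in both (0.27 and 0.24). The genes Syt2 in transgenic (-0.37) and Syt1 in Cck-/- libraries (-0.27), both calcium sensors of release, also fell. At week 28, Unc13c, a vesicle priming gene, was lower in transgenic than in Cck-/- libraries (-0.45, SE 0.10, adjusted p = 0.00947), the only 1 of the 22 called, and without Cck-/- week 28 replicate 1 this count was 4. With all libraries, 6.13% of all genes were called lower at that age, and the share without that library is not given here. No fall of the list was called in transgenic libraries without the 3 libraries low in choroid plexus genes or without the 3 that held Xist and Y-linked transcripts together.

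Rbfox3 encodes NeuN, a splicing factor present in granule neurons and absent from Purkinje cells, and lies at chr11:118489760-118911597 (minus). At week 5, Rbfox3 had 132, 105 and 108 FPKM in transgenic libraries, against 134, 125 and 122 FPKM in Cck-/- libraries. At week 12, Rbfox3 had 96.1, 108 and 116 FPKM in transgenic libraries, against 111, 103 and 110.4 FPKM in Cck-/- libraries. At week 28, Rbfox3 had 84.7, 82.5 and 88.6 FPKM in transgenic libraries, against 74.2, 105 and 102 FPKM in Cck-/- libraries. All week 28 libraries of each genotype lay below all its week 5 libraries. This held for 26.4% of all genes in transgenic and 24.3% in Cck-/- libraries. Rbfox3 fell from week 5 to 28 in transgenic (log2 fold change -0.42 with SE 0.11, adjusted p = 0.00971) and Cck-/- libraries (-0.45, SE 0.11, adjusted p = 0.00674). The transgenic call was lost without week 5 replicate 1, its highest library (-0.32, adjusted p = 0.0537), and the Cck-/- call was kept in all 18 such fits, at -0.29, adjusted p = 0.0236 without week 28 replicate 1. From week 12 to 28 in transgenic libraries it was -0.32, SE 0.11, adjusted p = 0.0532, and called without any 1 of Cck-/- week 28 replicates 1 and 2, transgenic week 5 replicate 1 and transgenic week 12 replicate 1 (adjusted p 0.0101 to 0.0454). Averaged over the ages the genotype difference was -0.096, SE 0.065, adjusted p = 0.361, and without Cck-/- week 28 replicate 1 it was called (-0.15, adjusted p = 0.0439). At week 28 it was -0.12, SE 0.11, adjusted p = 0.55, and -0.28, adjusted p = 0.0515 without that library.

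The age effects of the genotypes were compared through interactions. None of the 9 genes was called for a change in genotype effect from week 5 to 12, where 0.667% of all genes were called, from week 5 to 28 (3.65%) or from week 12 to 28 (0%; limma). At an unadjusted p under 0.05, none, 2 (Pax6 and Neurod1) and none passed, against 1628, 2656 and 1365 of all 13487 genes. With library weights none, 2 (Neurod1 and Pax6) and 1 (Slc17a7) were called, and the share of all genes under these weights is not known here. Values for week 5 to 28 ran from -0.12 for Cbln3 to 0.43 for Fat2 and were above 0 for 8 of the 9, all of which rest on the same 12 libraries, Cck-/- week 28 replicate 1 among them. Without that library none was called either, the values ran from -0.24 for Cbln3 to 0.26 for Neurod1, and 7 of the 9 were above 0.

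Other genes of mature granule neurons were measured beside the 9. Of 19 such genes, all tested, 4 fell and 2 rose from week 5 to 28 in transgenic libraries (median -0.070), and 6 fell and 1 rose in Cck-/- libraries (median -0.26). Falls were called for 19.9% and 17.7% of all genes, and the share that rose is not given here. Gabra6, the gene of a GABA receptor subunit typical of granule neurons, averaged 408 ± 53.2 FPKM in transgenic and 417 ± 3.13 FPKM in Cck-/- libraries at week 5, and 278 ± 11.4 and 311 ± 56.5 FPKM at week 28 (SD, n = 3 each). It fell in transgenic (log2 fold change -0.54 with SE 0.14, adjusted p = 0.00761) and Cck-/- libraries (-0.44, SE 0.14, adjusted p = 0.026), and the Cck-/- call was lost without Cck-/- week 28 replicate 1 (adjusted p = 0.12). Cadps2, a gene of dense-core vesicle release, and Mab21l1, a developmental gene, fell in both genotypes, at -0.34 and -0.19 in transgenic and -0.77 and -0.46 in Cck-/- libraries. Chn2, which encodes a Rac-regulating protein, fell in transgenic libraries (-0.39), and in Cck-/- libraries Nfia, a factor of granule cell maturation, fell (-0.46) and the tubulin gene Tubb3 rose (0.60). The shares of all genes called in the fits without libraries are not given here. Without Cck-/- week 28 replicate 1 the Cck-/- counts were 4 lower and 1 higher (median -0.079). Without the 3 libraries low in choroid plexus genes the transgenic counts were none lower and 1 higher (median 0.073).

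At week 28, 2 of these 19 genes were higher and 2 lower in transgenic than in Cck-/- libraries (median 0.078), against 4.54% and 6.13% of all genes. Kcnk9, the gene of a background potassium channel of granule neurons, was higher (log2 fold change 0.58 with SE 0.12, adjusted p = 0.00501), as was Meis1, a homeobox gene of the granule lineage (0.25, SE 0.065, adjusted p = 0.023). Chn2 (-0.46, SE 0.11, adjusted p = 0.0173) and Tubb3 (-0.47, SE 0.14, adjusted p = 0.0496) were lower. Without Cck-/- week 28 replicate 1, Meis1 was lost (adjusted p = 0.0638) and the other 3 remained called. At week 5, 1 of the 19 was called, Calb2, a calcium-binding protein gene also found in unipolar brush cells, which was lower in transgenic libraries (-0.62, SE 0.17, adjusted p = 0.0392), and this count was 3 without Cck-/- week 28 replicate 1. With all libraries, 7.67% of all genes were called at week 5, and the share without that library is not given here.

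For each of the 9 genes, the 3 most alike of 9849 genes with a mean of at least 5 FPKM were taken by the mean absolute difference of log2 values, each centred on its own mean over the 18 libraries. For Neurod1 these were Hs3st1 (0.071), Dgkd (0.075) and Mmp24 (0.079), and for Slc17a7 Camkk2 (0.076), Dgkd (0.080) and Cadps2 (0.082), so Dgkd was near both. Zic1 had Nelfa (0.049), Nuak1 and Ski, and Rbfox3 had Abi3 (0.058), Rgl3 and Cdipt. Zic2 and Pax6, the least variable pair, had Cecr5 in common, at 0.042 and 0.052. Cbln1 was nearest to En2 (0.055), the engrailed homeobox gene of the cerebellum, then Ehd1 and Kcnk10, and Cbln3 to Rab3ip (0.043), St3gal5 and Wscd2. Fat2 was nearest to Nav2 (0.092), Nfib and Ccdc120, the loosest match of the 9. The genes share libraries and their depth, and nothing was tested.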

How the data were processed

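RNA of whole cerebellum was extracted with TRIzol and RNeasy and made into TruSeq RNA libraries, per the labels' protocols. The deposited values are FPKM that the authors made with Cuffnorm of Cufflinks 2.2.1 after mapping with TopHat2 2.0.11 to mm10, per the submitters' processing notes and the file headers. The annotation, the use of strand and the way Cuffnorm scaled the libraries were not given in the sources used here. Fragment totals are unknown, so no count test was run and precision rests on the 3 libraries of each group. All 162 values of the 9 genes carry the status OK.

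From the deposited FPKM, log2(FPKM + 1) was fitted with limma 3.58.1 (R 4.3.3; empirical Bayes with a mean-variance trend) for the 13487 genes at 1 FPKM or more in at least 3 of 18 libraries. The model held a mean for each of the 6 groups, so that all groups shared 1 estimate of the spread (12 residual degrees of freedom). A pseudocount of 1 understates changes of low genes. P-values were adjusted by Benjamini-Hochberg over all genes within each of 13 comparisons, and calls were made at 0.05. The fit was also run on simulated data, whose outcome is not given here and lends no support to the p-values. The share of low-value ratios within 0.05 (log2) of the fragment step ran from 25.5% to 46.9% in the 6 libraries of week 28. In the other 11 it ran from 48.9% to 61.0%, so the step was less sharply defined at week 28.

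The 9 genes are named in every comparison, and from each list at most the 4 called genes with the smallest p, or without a call the 2 with the smallest p. The genes, lists and tests were chosen with earlier results of these data known, and give no independent support for patterns seen before. The fits without the 3 libraries low in choroid plexus genes (mean log2 level under 3) and without the 3 that held Xist and Y-linked transcripts together, and the counts of each list without Cck-/- week 28 replicate 1, were added after the data were seen. Other alternatives changed the pseudocount, filter, scaling, variance model, library weights, covariate, replicate block, and the groups or libraries in the fit. Some genes of the list of cerebellin relatives and receptors are not reported here by name. Promoters come from RefSeq, and positions from the deposited table and GENCODE M21. Replicate numbers did not pair the libraries.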

Additional observations from a re-analysis of the deposited data

How the results depend on the processing

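Counts of the 9 genes that changed by over 1.5 times are given by setting. At week 28 the genotype count of 1 became 0 with no filter, with median-ratio scaling, with only the groups compared in the fit, without the 3 libraries low in choroid plexus genes, or without the 3 that held Xist and Y-linked transcripts together, 2 with quantile normalization and 6 with library weights. At week 5 the genotype count of 0 became 1 with library weights and 1 with only the groups compared, and averaged over ages 0 became 2 with library weights. The interaction counts of 0 became 2 (week 28 minus 5) and 1 (week 28 minus 12) with library weights. From week 12 to 28 in transgenic libraries, the count of 2 became 4 with median-ratio scaling, with library weights and with only the groups compared, 0 with quantile normalization and 0 without the libraries that held Xist and Y-linked transcripts together. From week 5 to 28 in transgenic libraries, the count of 5 became 0 without the libraries low in choroid plexus genes but 1 without those that held Xist and Y-linked transcripts together. In Cck-/- libraries, the count of 2 from week 5 to 12 became 5 with library weights and 4 with only the groups compared, and the count of 2 from week 12 to 28 became 0 with only the groups compared. The cause was not tested, and the shares of all genes called under these settings are not known here.

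Leaving out each library in turn gave 0 to 1 genes for genotype at week 5, 0 to 0 at week 12, 0 to 2 at week 28 and 0 to 2 averaged over ages. The interactions gave 0 to 0, and age gave 0 to 0 (week 5 to 12), 0 to 5 (week 12 to 28) and 2 to 6 (week 5 to 28) in transgenic and 1 to 3, 0 to 2 and 4 to 7 in Cck-/- libraries. The shares of all genes called in these fits are not given here. Counts stayed within 1.5 times under the other pseudocounts, a mean of at least 5 FPKM, robust or untrended variance and the choroid plexus covariate. No value with a call reversed. Over the 9 genes 3410 planned results kept their side of the threshold, 55 lost a call and 45 gained one. Values without a call that changed direction are among the 3410. With the replicate number as a block, 3 genes (Neurod1 added, adjusted p = 0.0475) were called from week 12 to 28 in transgenic libraries, and no other count changed. The samples share only a number: same-numbered libraries deviated together beyond a correlation of 0.1 in all 3 pairs in none of the 9 comparisons, and at most 2 of 3 correlated best with their own number. Scaling moved the all-gene median by under 0.03 (log2), but quantile normalization changed calls of the 9 genes. It ended the transgenic falls from week 12 to 28 of Slc17a7 (-0.34, adjusted p = 0.055) and Zic1 (-0.15, adjusted p = 0.176). Cbln3 from week 5 to 28 was lost too (-0.23, adjusted p = 0.0692). Newly called were Neurod1 by genotype at week 28 (0.37, adjusted p = 0.0386) and Pax6 from week 5 to 28 in transgenic libraries (0.21, adjusted p = 0.0172). Unknown depth limits what can be said of genes near 1 FPKM, and the greater depth of the week 28 libraries cannot be told apart from that age in the values of the 9 genes.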

Other observations

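Genes of the granule cell precursor state were measured beside those of the mature neurons. Of 18 such genes, 13 were tested. At week 28 there were 2 higher and 2 lower in transgenic than in Cck-/- libraries by limma, against 4.54% and 6.13% of all genes. Gli1, a transcriptional effector and target of Sonic hedgehog signalling that in the adult cerebellum also marks Bergmann glia, averaged 4.79 ± 0.311, 3.76 ± 0.542 and 1.98 ± 0.695 FPKM at weeks 5, 12 and 28 in transgenic libraries, against 5.40 ± 0.300, 5.14 ± 0.349 and 5.17 ± 0.245 FPKM in Cck-/- libraries (SD, n = 3 each). It was lower in transgenic libraries at week 28 (log2 fold change -1.08 with SE 0.12, adjusted p = 4.59e-05), a call kept without Cck-/- week 28 replicate 1 (-1.10, adjusted p = 0.000258). The change in its genotype effect from week 5 to 28 was called (-0.93, SE 0.17, adjusted p = 0.0139), but not without the 3 libraries that held Xist and Y-linked transcripts together (-0.87, adjusted p = 0.108). The other called gene of the list in this comparison was Hhip, a hedgehog-binding protein gene, which changed in the opposite direction (0.59, SE 0.16, adjusted p = 0.0469), and was 0.64, adjusted p = 0.0417 without Cck-/- week 28 replicate 1, 0.76, adjusted p = 0.0592 without the choroid-low libraries and 0.58, adjusted p = 0.167 without those that held Xist and Y-linked transcripts together. Ptch1, the Sonic hedgehog receptor gene, was also lower at week 28 (-0.40, SE 0.076, adjusted p = 0.00286), whereas Ccnd1, a cyclin gene (0.47, SE 0.087, adjusted p = 0.00274), and Cntn2, an adhesion gene of young granule cells (0.32, SE 0.088, adjusted p = 0.031), were higher. In the same libraries 14 of 15 Purkinje cell genes were lower, and 3 of 10 astrocyte and Bergmann glia genes were higher and 6 lower, and their part in these values was not tested.

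Eomes, the factor that marks unipolar brush cells, glutamatergic interneurons of the granular layer, averaged 9.48 ± 1.67, 9.61 ± 2.34 and 3.54 ± 0.478 FPKM at weeks 5, 12 and 28 in transgenic libraries, against 11.8 ± 1.21, 15.9 ± 5.91 and 3.87 ± 0.318 FPKM in Cck-/- libraries (SD, n = 3 each). From week 5 to 28 it fell in transgenic (log2 fold change -1.20 with SE 0.20, adjusted p = 0.000401) and in Cck-/- libraries (-1.39, SE 0.20, adjusted p = 0.000107; limma), a larger log2 fold change than that of any of the 9 granule neuron genes in the same genotype. Both calls held without Cck-/- week 28 replicate 1, without the libraries low in choroid plexus genes, and also without those that held Xist and Y-linked transcripts together, with an adjusted p of at most 0.00881. Of the 3 unipolar brush cell genes tested, 1 fell in transgenic libraries and 2 fell in Cck-/- libraries, where Calb2 was the other (-0.62, SE 0.17, adjusted p = 0.0125). Falls were called for 19.9% of all genes in transgenic and 17.7% in Cck-/- libraries. Lists of choroid plexus genes and of blood genes had no gene called in any of the 13 comparisons. Both lists varied widely between libraries, so this does not show that their levels were alike. At week 5 the mean log2 level of blood genes was 4.22 to 4.63 in transgenic, against 5.86 to 6.56 in Cck-/- libraries. That of choroid plexus genes was 1.78 to 5.01 in transgenic, against 4.16 to 4.51 in Cck-/- libraries.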
